A study of Homo sapiens with 3 samples.

Results

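RNASEH2B and 6 other genes of innate nucleic acid sensing (ADAR, LMNB1, TBK1, CGAS, RIGI and MAVS) were followed across PAR-CLIP cluster tables of the RNA-binding protein MATR3. CGAS is named MB21D1 and RIGI is named DDX58 in the tables. A cluster is a stretch of overlapping reads that carries T-to-C changes, and every cluster assigned to one of these 7 gene names was taken, which gave 98 clusters of 115227. The genes are 7 of 9754 with a cluster in any library, and they were chosen with their cluster counts in these libraries known. Their cluster numbers are therefore a description, with no test.

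The cells were HAP1, a near-haploid human line derived from the chronic myeloid leukaemia line KBM-7. The groups are 2 wild-type (WT) replicate libraries, called WT rep1 and WT rep2, and 1 library from a purchased MATR3 knockout (KO) line, which the design treats as the negative control. No added treatment is labelled for either genotype. Complexes were recovered on anti-FLAG beads in all 3 libraries although the labels record no tag, and they do not say whether the WT libraries came from separate cultures. ABL1, the kinase gene of the leukaemic fusion, had clusters in both WT libraries, whereas BCR and 4 blood cell genes (PTPRC, SPI1, GATA1 and CD33) had none in any library. Cluster lists show bound RNA only, so the cell type label could not be checked further.

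In PAR-CLIP, cells take up 4-thiouridine, UV light crosslinks it to a bound protein, and reverse transcription reads the crosslinked base as C. MATR3 (Matrin 3) is a nuclear protein with RNA recognition motifs and zinc fingers that binds pyrimidine-rich sequence, much of it in introns. RNASEH2B encodes an accessory subunit of RNase H2, the enzyme that removes ribonucleotides from DNA and cuts RNA in RNA-DNA hybrids; inherited loss of its function causes Aicardi-Goutières syndrome, an interferon-driven disease. ADAR edits adenosines in double-stranded RNA and keeps self RNA from its sensors, and lamin B1 (LMNB1) supports the nuclear envelope. CGAS senses DNA in the cytosol and makes the second messenger that activates STING, RIGI senses viral RNA and signals through MAVS, and the kinase TBK1 acts downstream of both routes.

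RNASEH2B, on the plus strand of chromosome 13, showed 5 sites at which the separately called WT lists overlapped on the same strand. All were intronic. They are shown first because they are the positions seen in both libraries. The lines give the cluster of WT rep2 in hg38 coordinates, 5′ to 3′ on the RNA strand and with T for U as in the tables, with the longest uninterrupted run of C and T in capitals.
RNASEH2B chr13:50925065-50925101 (plus strand): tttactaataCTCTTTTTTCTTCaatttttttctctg
RNASEH2B chr13:50950645-50950679 (plus strand): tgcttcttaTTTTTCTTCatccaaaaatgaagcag
RNASEH2B chr13:50950790-50950812 (plus strand): tttcataactttaTTCTTCTCTg
RNASEH2B chr13:50960994-50961026 (plus strand): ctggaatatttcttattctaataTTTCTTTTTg
RNASEH2B chr13:50962235-50962258 (plus strand): taTTCTTTCatcacttattttctg
Each of the 5 sequences ends in G, the base after which RNase T1 cuts, as did 93.1% of all plus-strand clusters of WT rep2. The overlapping WT rep1 cluster that also starts at chr13:50950790 ends in C.

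The RNASEH2B clusters with the most reads were mostly not these shared sites. They are shown because the top 3 held 36.9% of the reads over RNASEH2B in WT rep1 and 47.0% in WT rep2. The first 3 lines are from WT rep1, with 215, 190 and 175 reads, and the last 2 are from WT rep2, with 133 and 107 reads; capitals again mark the longest run of C and T. The remaining one of the top 3 in WT rep2, with 92 reads, is the first site shown above.
RNASEH2B chr13:50951758-50951791 (plus strand): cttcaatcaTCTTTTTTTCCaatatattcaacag
RNASEH2B chr13:50962352-50962386 (plus strand): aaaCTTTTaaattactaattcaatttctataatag
RNASEH2B chr13:50961286-50961318 (plus strand): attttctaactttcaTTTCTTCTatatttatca
RNASEH2B chr13:50962816-50962848 (plus strand): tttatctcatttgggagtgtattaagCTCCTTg
RNASEH2B chr13:50962582-50962616 (plus strand): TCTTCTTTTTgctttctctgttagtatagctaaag
Long runs of C and T were not a feature of every strong cluster: the cluster with 190 reads has a run of only 5 bases, in a sequence otherwise rich in A and T.

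The libraries differed in size and in how often the same read was seen again, and this touches every count given here. WT rep1 held 87230 clusters, WT rep2 held 27155 and KO held 842. The median cluster had 20, 39 and 243 reads, and each distinct read sequence stood for 7.58, 17.9 and 30.7 reads, in the same order. The 7 genes together had 72 clusters in WT rep1, 25 in WT rep2 and 1 in KO, a WT mean of 48.5 ± 33.2 (SD, n = 2). They made up 0.0825% of the clusters of WT rep1 and 0.0921% of those of WT rep2. These shares lay close together, so the WT lists differed over these genes by about the factor that they did over all clusters. No RNA level was measured in these libraries, and more RNA of a gene and more binding per RNA cannot be told apart. All 7 genes had a cluster in WT rep1, 6 had one in WT rep2 and in both WT libraries, and 1 had one in KO. Among 20056 protein-coding genes of RefSeq, 41.4% had a cluster in WT rep1, 28.1% in WT rep2, 26.2% in both and 2.86% in KO. The genes were chosen by such clusters, so nothing is read from that contrast.

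RNASEH2B carried 37 clusters made of 1571 reads in WT rep1, 12 made of 707 reads in WT rep2, and none in KO. It supplied 51.4% and 48.0% of the clusters of the 7 genes in the WT libraries. Over the 60.8 kb of its RefSeq interval this was 60.9 clusters per 100 kb in WT rep1 and 19.7 in WT rep2, a mean of 40.3 ± 29.1 (SD, n = 2). The medians over genes of at least 10 kb with a cluster were 8.93 and 4.0 per 100 kb, so RNASEH2B stood well above the middle of each library although its own values differed by library size. By number of clusters it ranked 326 of 9189 genes in WT rep1 and 353 of 6043 in WT rep2. Among 1551 protein-coding genes of 50 to 70 kb, the median was 1 cluster in WT rep1 and 0 in WT rep2. In that length class 14 genes reached 37 clusters in WT rep1 and 13 reached 12 in WT rep2. RNASEH2B was thus among the densest genes of its length in both WT libraries, but not alone.

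The other genes followed in the order of their clusters per 100 kb averaged over the WT libraries. ADAR had 13 clusters with 537 reads in WT rep1 and 6 with 367 reads in WT rep2, or 28.3 and 13.1 clusters per 100 kb. LMNB1 had 12 with 370 reads and 3 with 102 reads, or 19.9 and 4.97 per 100 kb. These are the only genes besides RNASEH2B above the library medians in both WT libraries. CGAS had 1 cluster with 17 reads and 2 with 163 reads, and it was the only one of the 7 genes with more clusters and more reads in WT rep2. MAVS had 3 clusters with 54 reads, all in WT rep1. TBK1 had 4 with 281 reads and 1 with 48 reads, or 8.0 and 2.0 per 100 kb. RIGI had 2 with 24 reads and 1 with 12 reads, the fewest WT reads of the 7 genes. As means over the WT libraries, neighbours in this order did not differ beyond their spread: 40.3 ± 29.1, 20.7 ± 10.8, 12.4 ± 10.5, 5.25 ± 2.47, 5.12 ± 7.24, 5.00 ± 4.24 and 2.12 ± 0.997 clusters per 100 kb (SD, n = 2 each). Within each WT library, RNASEH2B, then ADAR, came first; below them the order changed between libraries.

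**Figure D1:**
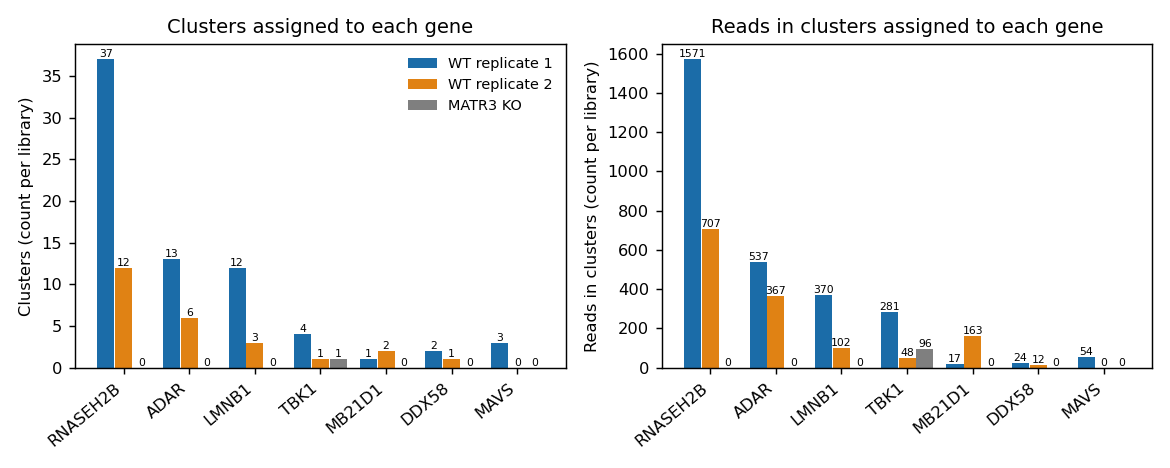
Clusters and the reads they hold (vertical axes, counts per library) for each of the 7 genes as the tables name them (horizontal axis), with 1 bar per library. RNASEH2B stands highest, at 37 and 12 clusters in the WT libraries, and the only KO bar is that of TBK1, with 1 cluster of 96 reads.

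RNASEH2B clusters were nearly all intronic. In WT rep1, 36 of 37 lay in introns, a share of 97.3% (95% Wilson interval 86.2 to 99.5%), and in WT rep2 all 12 did. Over all clusters the intronic shares were 84.1% and 83.1%, but these lists also hold clusters of further classes, such as those outside genes. In WT rep1, all clusters included 73317 intronic, 2562 3′ UTR and 377 coding ones. In WT rep2 these numbered 22569, 1131 and 185. Beside 3′ UTR and coding clusters alone, introns thus prevailed over all clusters too, and the share does not set RNASEH2B apart. The exception was a 3′ UTR cluster of 12 reads in WT rep1, 62.9 kb from the RefSeq gene start and 2.13 kb beyond the RefSeq gene end. It holds an uninterrupted run of 29 C and T bases, the longest among the RNASEH2B clusters. Over the 7 genes 86 clusters were intronic, 12 lay in 3′ UTRs and none was annotated as coding sequence, which made up only 0.432% and 0.681% of all clusters in the WT libraries. Intervals on shares cover counting error only, and clusters of 1 gene share their transcript and library.

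Along RNASEH2B the clusters were unevenly spread, and those of WT rep2 lay in a subset of the parts of the gene where WT rep1 had clusters. Distance is given from the RefSeq gene start. In WT rep1 the intervals of 15 to 20 kb and 50 to 55 kb held 7 clusters each, with 193 and 502 reads. In WT rep2 the same intervals held 3 clusters with 176 reads and 5 with 405 reads. Counting only clusters inside the RefSeq interval, which leaves out the 3′ UTR cluster at 62.9 kb, there were 13 intervals of 5 kb. Both WT libraries had clusters in 4, WT rep1 alone in 4, WT rep2 alone in 0, and neither in 5. Of the intervals with WT rep1 clusters alone, the one of 5 to 10 kb held 5 clusters with 218 reads and the one of 35 to 40 kb held 5 with 113 reads. A stretch of 18.0 kb, from 18.0 to 36.0 kb, held no cluster in either library. In WT rep2 no cluster lay in the first 15.4 kb, where WT rep1 had 7 clusters with 311 reads. In 4 equal parts of the gene, 5′ to 3′, clusters numbered 7, 7, 10 and 12 in WT rep1 and 0, 3, 3 and 6 in WT rep2. The last part held the most clusters in each library, and with them 653 and 421 reads. Neighbouring clusters were close, with a median gap of 390 nt in WT rep1 and 678 nt in WT rep2.

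**Figure D2:**
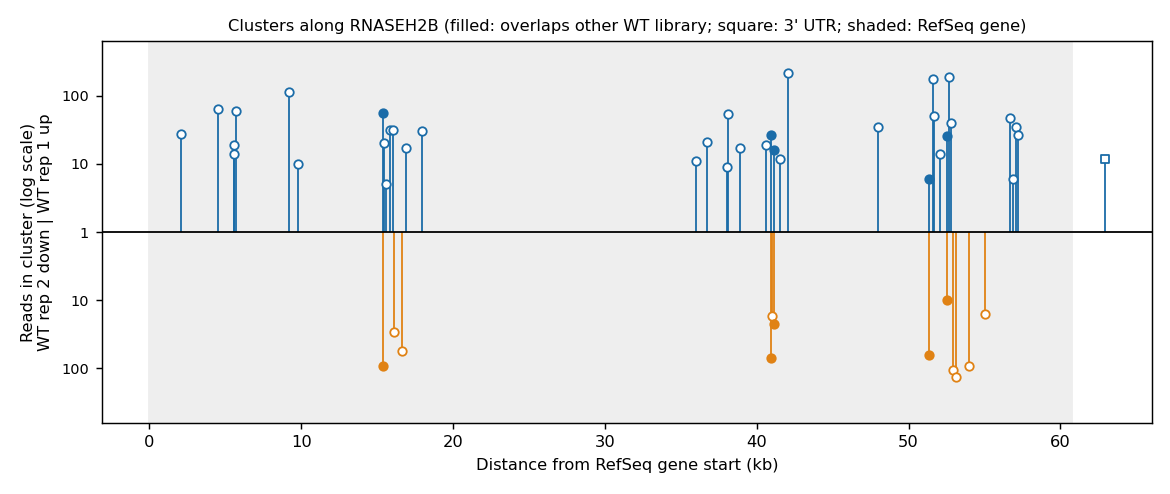
Each marker is 1 cluster along RNASEH2B, placed by its distance from the RefSeq gene start in kb (horizontal axis) and by its reads on a log scale (vertical axis), with WT rep1 upwards and WT rep2 downwards. Filled markers are the 5 overlapping sites, the square is the 3′ UTR cluster, and the gap from 18.0 to 36.0 kb is empty in both libraries.

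Of the 12 RNASEH2B clusters of WT rep2, 5 overlapped a WT rep1 cluster by at least 1 nt, a share of 41.7% (95% Wilson interval 19.3 to 68.0%). Over all clusters of WT rep2 the share was 19.5%, and over its intronic clusters 20.3%. The interval for RNASEH2B includes both of those values. With WT rep1 limited to as many clusters as WT rep2, those with the most reads, 1 of the 12 RNASEH2B clusters overlapped, beside 11.8% over all clusters, so the higher share of RNASEH2B was not kept with lists of equal size. Seen from the larger library, 5 of 37 clusters (13.5%, 5.91 to 28.0%) had a partner, against 6% of all clusters. With a distance of up to 100 nt allowed, 8 of 12 had a neighbour in WT rep1, against 34.2% over all clusters of WT rep2. Within 1000 nt it was 10 of 12, against 58.9%. A denser gene offers more clusters to meet, and RNASEH2B is dense; the part of density in these shares was not tested.

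The 5 shared RNASEH2B sites were not the strongest ones in WT rep1. At 15.4 kb the site had 56 reads in WT rep1 and 92 in WT rep2. It starts at the same base in both, with 7 converted positions in the first and 2 in the second. At 41.0 kb it had 27 and 71 reads, with 4 and 5 converted positions. At 41.1 kb it had 16 and 22 reads with 2 converted positions in each, starting at the same base. So at these 3 sites WT rep2, the smaller list, had the more reads, as it did at 51.3 kb, with 6 and 64. At 52.6 kb the reads were 26 and 10. The sites at 51.3 and 52.6 kb ended at the same base in the 2 libraries. By distinct read sequences WT rep2 was higher only at 41.0 kb, with 7 beside 4 in WT rep1. Shared RNASEH2B clusters had a median of 26 reads in WT rep1, and unshared ones 27.5 (range 5 to 215). In WT rep2 the medians were 64 and 55 (unshared range 16 to 133). Shared clusters ranged from 6 to 56 reads in WT rep1 and from 10 to 92 in WT rep2, inside or overlapping the ranges of the unshared ones.

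RNASEH2B clusters were rich in T. T made up 45.0% of their bases in WT rep1 and 52.2% in WT rep2, a mean of 48.6 ± 5.07% (SD, n = 2). Over all intronic clusters T made up 40.4% and 42.1%. C was lower in RNASEH2B, at 23.0% and 20.8%, than over all intronic clusters, at 27.7% and 26.9%. C and T together came to 68.0% and 73.0%, beside 68.1% and 68.9% over all intronic clusters. RNASEH2B thus had more T and less C in both libraries, at a similar pyrimidine share in WT rep1 and a higher one in WT rep2. In the other 6 genes T was at 38.0% and 43.4%, below all intronic clusters in WT rep1 and above them in WT rep2. C, at 30.5% and 28.3%, was above them in both. High T was not confined to RNASEH2B: over few clusters, RIGI had 51.7% and 46.4%, and CGAS 28.6% and 57.4%. ADAR, LMNB1, TBK1 and MAVS were below RNASEH2B wherever they had clusters. In RNASEH2B the median longest run of C and T was 9 bases in WT rep1 and 9.5 in WT rep2, beside 8 in each over all clusters.

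**Figure D3:**
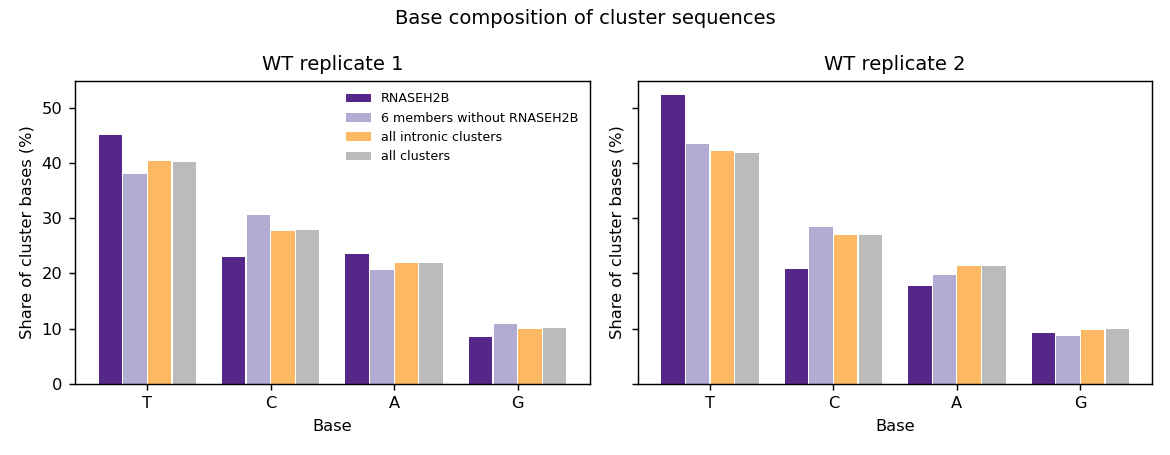
Share of cluster bases (vertical axis, percent) for each base (horizontal axis) in each WT library, with bars for RNASEH2B, the other 6 genes, all intronic clusters and all clusters. The RNASEH2B bars for T, 45.0% and 52.2%, stand above those of all clusters, 40.1% and 41.8%.

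Pentamers were searched on the RNA strand only, and their shares set beside those over all clusters of the same lengths. ATCTT is the word often given for MATR3. It occurred in 7 of 37 RNASEH2B clusters of WT rep1 (18.9%, 9.48 to 34.2%), beside 15.3% over all clusters of matching length. It occurred in 1 of 12 in WT rep2 (8.33%, 1.49 to 35.4%), beside 15.2%. For ATCTT the libraries thus fell on different sides of the level over all clusters, with intervals that include it. TTTCT occurred in 19 of 37 (51.4%, 35.9 to 66.6%) and in 9 of 12 (46.8 to 91.1%), beside 33.5% and 33%. TTCTT, which can overlap TTTCT, occurred in 35.1% (21.8 to 51.2%) and 66.7% (39.1 to 86.2%), beside 31.1% and 31.7%. TCTCT occurred in 7 of 37 (18.9%, 9.48 to 34.2%) and 6 of 12 (25.4 to 74.6%), beside 22.2% and 22.7%. For TTCTT and TCTCT the WT rep1 intervals thus include the level over all clusters, and TCTCT lay below it there. The G-containing words GTGGC and GGAGA are scarce in all clusters: in WT rep1 they occurred in 1.38% and 1.28% of those of the same lengths. GTGGC occurred in 1 of the 37 RNASEH2B clusters there and GGAGA in none, and neither occurred in WT rep2, so these counts do not set RNASEH2B apart. A match describes the letters of a cluster and does not locate a binding site.

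T-to-C conversion in RNASEH2B was measured per T and per read. Of the T events read in its clusters, 7.66% were converted in WT rep1 (1809 of 23622, 95% Wilson interval 7.33 to 8.0%). For WT rep2 it was 5.83% (731 of 12541, 5.43 to 6.25%). Over all intronic clusters the shares were 8.03% and 7.77%, and over all clusters 7.98% and 7.55%, all higher than in RNASEH2B. The intervals treat T events as independent, whereas each distinct read sequence stood for 8.63 and 16.1 reads in RNASEH2B. They are therefore too narrow to set RNASEH2B apart. Its reads held more T: 15.0 T events per read in WT rep1 and 17.7 in WT rep2, beside 13.3 and 13.6 over all intronic clusters. Converted T per read was 1.15 and 1.03 in RNASEH2B, beside 1.07 and 1.06 over all intronic clusters. Per read, then, conversion in RNASEH2B was higher than in intronic clusters in WT rep1 and lower in WT rep2. The median share of reads with a change was 89.7% and 97.1% over RNASEH2B clusters, beside 94.1% and 97.5% over all clusters.

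ADAR, on the minus strand of chromosome 1, differed from RNASEH2B in where its clusters lay. In WT rep1, 4 of its 13 clusters were in the 3′ UTR (30.8%, 12.7 to 57.6%). For WT rep2 it was 5 of 6 (83.3%, 43.7 to 97.0%). The 3′ UTR share over all clusters was 2.94% and 4.16%, below both ADAR intervals; ADAR was among the genes chosen with these values known. The 3′ UTR clusters had 42, 30, 56 and 69 reads in WT rep1 and 161, 25, 20, 8 and 6 reads in WT rep2. In WT rep2 those of 25, 20, 8 and 6 reads lay close together, at 43.4 to 43.6 kb. The interval counts them as separate and independent clusters. By reads, introns held 63.3% of the ADAR reads in WT rep1 and 40.1% in WT rep2. Only 1 site was shared, in the 3′ UTR at 43.6 kb, where a 29 nt cluster of WT rep2 with 25 reads lies inside a longer cluster of WT rep1 with 69 reads. The strongest intronic cluster of each library lay at 35.4 kb with 136 reads in WT rep1 and at 35.3 kb with 147 reads in WT rep2. These do not overlap but are 44 nt apart. The shared site is shown with the strongest intronic cluster of each library; capitals mark the longest run of C and T.
ADAR 3′ UTR, WT rep2, chr1:154584340-154584368 (minus strand): acccctctaCTTCCCCTCTTTCCCTTCTg
ADAR intron, WT rep1, chr1:154592603-154592636 (minus strand): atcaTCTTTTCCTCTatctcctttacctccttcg
ADAR intron, WT rep2, chr1:154592680-154592714 (minus strand): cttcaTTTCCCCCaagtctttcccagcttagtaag
In the order shown, these sequences hold 15, 13 and 12 C beside 11, 16 and 12 T. The WT rep1 cluster thus has more T than C, with T at 47.1% of its bases. Over all ADAR clusters T made up 34.1% and 39.3% of bases and C 32.9% and 31.0%, so that the T-rich make-up of RNASEH2B was not found in ADAR.

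LMNB1, on the plus strand of chromosome 5, had intronic clusters only, and none was shared. Its clusters in WT rep2 lay at 35.6, 37.1 and 53.4 kb with 86, 7 and 9 reads. The nearest pair between libraries was 664 nt apart. Its strongest clusters, 94 reads in WT rep1 and 86 in WT rep2, hold runs of C and T marked by capitals.
LMNB1 intron, WT rep1, chr5:126780735-126780767 (plus strand): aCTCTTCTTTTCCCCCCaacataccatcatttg
LMNB1 intron, WT rep2, chr5:126812226-126812259 (plus strand): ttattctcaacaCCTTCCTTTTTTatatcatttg
In LMNB1 clusters T made up 42.0% and 40.7% of bases, close to the shares over all clusters.

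TBK1, on the plus strand of chromosome 12, had the only site among the 7 genes with the same start and end in both WT libraries, and also the only KO cluster. The shared intronic site, at 17.3 kb, had 140 reads of 17 distinct sequences and 7 converted positions in WT rep1. In WT rep2 it had 48 reads of 4 distinct sequences and 3 converted positions. It held the whole TBK1 signal of WT rep2. The KO cluster, at 45.8 kb, had 96 reads that were all copies of 1 read sequence, with 2 converted positions. It lay 3637 nt from the nearest WT cluster. Lack of overlap was usual in KO, where only 6.53% of all clusters overlapped a WT cluster. The shared site is shown because its bounds were identical in both WT libraries, with the longest run of C and T in capitals.
TBK1 intron, both WT libraries, chr12:64469456-64469485 (plus strand): tcaacacacatcttcattctcaTTTCTCTg
WT rep1 had a further TBK1 cluster, in the 3′ UTR with 46 reads, of which only 21.7% carried changes.

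The sensors CGAS and RIGI and the adaptor MAVS had few clusters. CGAS, on the minus strand of chromosome 6, had 2 clusters in WT rep2. The cluster of 150 reads lay at 28.4 kb, near the end of the 28.6 kb RefSeq interval. The other, of 13 reads, lay 7.51 kb beyond the RefSeq gene end. Both are annotated as intronic, so their class does not rest on the RefSeq interval. The WT rep1 cluster, of 17 reads, lay elsewhere, at 10.8 kb. RIGI, on the minus strand of chromosome 9, had intronic clusters of 19 and 5 reads in WT rep1 and of 12 reads in WT rep2, at different places. MAVS, on the plus strand of chromosome 20, had intronic clusters of 37 and 12 reads and a 3′ UTR cluster of 5 reads, all in WT rep1. No site of these 3 genes was seen in both WT libraries. The strongest cluster of each is shown to compare it with RNASEH2B, with the longest run of C and T in capitals.
CGAS intron, WT rep2, chr6:73423890-73423924 (minus strand): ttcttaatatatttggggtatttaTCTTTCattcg
RIGI intron, WT rep1, chr9:32509986-32510016 (minus strand): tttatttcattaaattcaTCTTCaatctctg
MAVS intron, WT rep1, chr20:3848152-3848185 (plus strand): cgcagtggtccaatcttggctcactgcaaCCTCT
The MAVS cluster is the only one of these whose longest run lies at its very end and whose last base is not G.

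**Figure D4:**
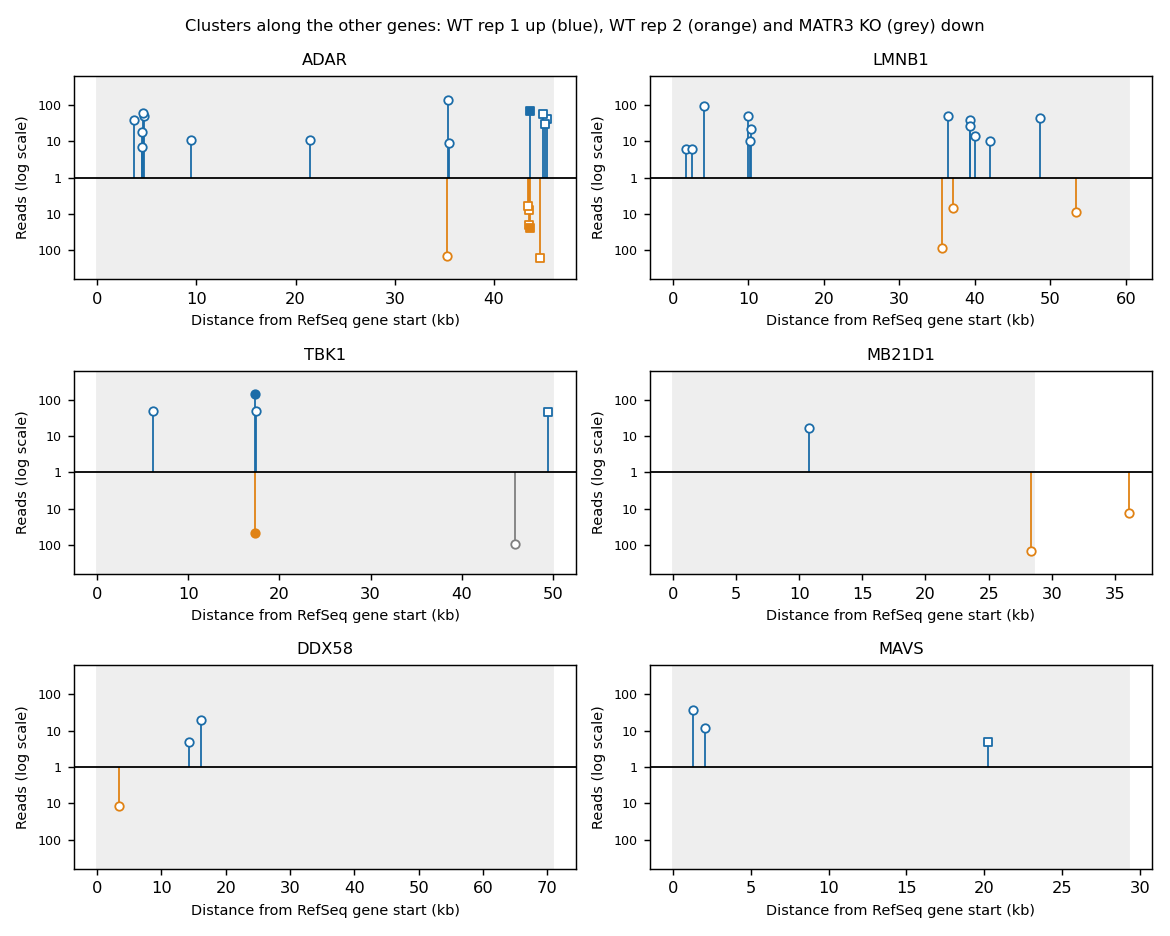
Clusters of the other 6 genes by distance from the RefSeq gene start in kb (horizontal axes) and reads on a log scale (vertical axes), with WT rep1 upwards and WT rep2 and KO downwards. ADAR clusters lie at the 3′ end in both WT libraries and also near the 5′ end in WT rep1, the filled TBK1 marker is the site with identical bounds in both WT libraries, and the grey marker is the KO cluster of 96 reads.

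Across the 7 genes, 7 of 25 clusters of WT rep2 overlapped WT rep1 (28.0%, 14.3 to 47.6%), 5 of them in RNASEH2B. Without RNASEH2B it was 2 of 13 (15.4%, 4.33 to 42.2%). Of the 7 pairs, 3 started at the same base and 3 ended at the same base, and 1 pair, in TBK1, did both. Reads were higher in WT rep1 in 3 pairs and in WT rep2 in 4. By reads, the larger library was thus not the higher one at most shared sites. By distinct read sequences WT rep1 was higher at most of them. In WT rep1 and WT rep2 these numbered 17 and 3 in ADAR and 17 and 4 in TBK1. In the RNASEH2B pairs, 5′ to 3′, they were 5 and 3, 4 and 7, 4 and 3, 3 and 3, and 3 and 2. ATCTT occurred in 17 of 72 clusters of the 7 genes in WT rep1 (23.6%, 15.3 to 34.6%) and in 5 of 25 in WT rep2, beside 15.2% and 15.1% over all clusters of the same lengths.

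In KO, 6 of the 7 genes had no cluster. At the WT shares of clusters, a library of 842 clusters would hold 0.695 or 0.775 clusters of the 7 genes, and 0.357 or 0.372 of RNASEH2B. A lack of RNASEH2B clusters in KO was therefore not distinguishable from the small size of that list. The genotypes were not tested against each other, as KO has 1 library.

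Ends of clusters differed by strand in the deposited tables, which bears on ADAR, CGAS and RIGI. For clusters of the plus-strand genes the sequence ended in G in 69.6% (n = 56) and 87.5% (n = 16) of cases, and the deposited mean share of reads ending in G was 66.7% and 87.5%. For the minus-strand genes the sequence ended in G in 62.5% (n = 16) and 100% (n = 9), but the deposited mean share was 0.181% and 10.6%. Over all minus-strand clusters it was 1.62% beside 80.5% of sequences in WT rep1. Where the first base of a minus-strand cluster was G, the deposited share averaged 54.2% in WT rep1, and 0.613% where it was not. The deposited share thus followed the first and not the last base on that strand, and it was not used for the minus-strand genes.

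**Figure D5:**
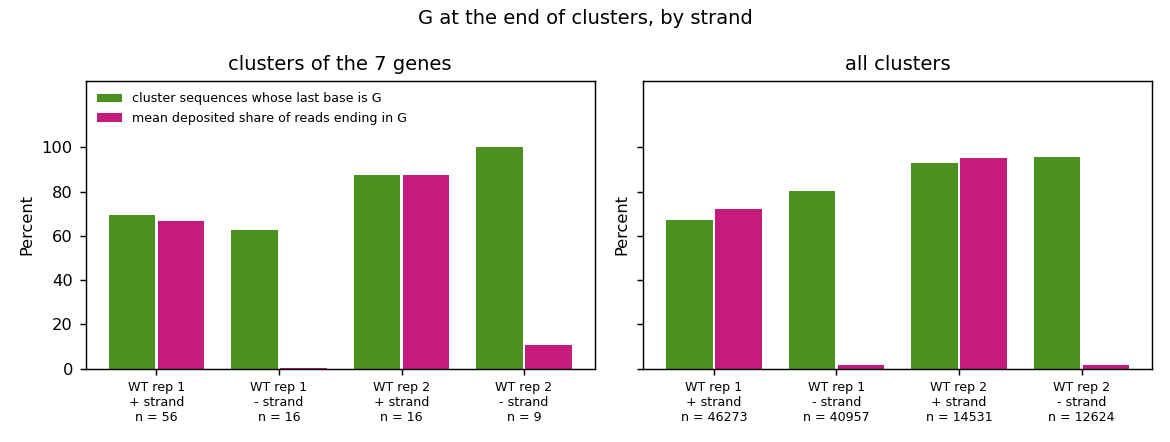
Percent of cluster sequences whose last base is G, and the mean deposited share of reads ending in G (vertical axes), by library and strand (horizontal axes), for the 7 genes and for all clusters. For the 7 genes the pairs of bars lie close together on the plus strand and part on the minus strand, where sequences end in G at 62.5% and 100% and the deposited means are 0.181% and 10.6%.

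Other genes of the sensing and interferon pathway were taken from a list of 38 that includes the 7. Of the remaining 31 genes, 15 (48.4%) had a cluster in WT rep1, 4 (12.9%) in WT rep2 and 0 in KO. Against 41.4% and 28.1% of all protein-coding genes, these shares lay on different sides in the 2 libraries. The whole list of 38 had a cluster in 57.9% and 26.3% of its genes. As the 7 were chosen with their clusters known, taking them out lowers the share of the rest, so nothing is read from it. Of the 4 genes with clusters in both, TRAF3, an adaptor that links sensors to TBK1, had 15 clusters with 261 reads and 7 with 191 reads. Over its length this was 11.2 and 5.22 clusters per 100 kb, below ADAR in both libraries. JAK1, a kinase of the interferon receptor, had 8 with 140 reads and 1 with 24 reads. The receptor chain gene IFNAR1 had 1 cluster in each, of 25 and 222 reads, and the transcription factor gene STAT2 had 1 in each, of 14 and 59 reads. In WT rep1 alone, the gene of the RIGI-activating ubiquitin ligase TRIM25 had 5 clusters with 150 reads. LMNB2 had 3 clusters there, the RNA-sensing kinase gene EIF2AK2 and the cGAMP hydrolase gene ENPP1 2 each, and IFNAR2, LSM11, IFI16, STING1 (TMEM173 in the tables), RNASEH2C and ISG15 1 each. Of the other RNase H2 subunits, RNASEH2A had no cluster and RNASEH2C had 1 of 11 reads in the 3′ UTR.

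The genes nearest RNASEH2B in clusters and cluster reads over the 3 libraries, by Euclidean distance of log2(value + 1) over 6 values, were NDUFA10, USP10 and PCBP2. NDUFA10 had 38 clusters with 1502 reads and 13 with 737 reads. USP10 had 34 with 1488 reads and 11 with 652 reads, and PCBP2 had 34 with 1610 reads and 14 with 785 reads. None had a KO cluster. The profile of RNASEH2B was thus shared by other genes, at distances of 0.144, 0.217 and 0.284.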

How the data were processed

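The 7 genes, the pathway list and the motifs were chosen with earlier results of these data known. The deposited tables hold whole-number counts per cluster (reads, distinct read sequences, converted positions, converted and unconverted T events), not normalised, per the file headers. Deposited fraction columns give the shares of reads with a change or ending in G. The deposited caller scores were not used. The submitters' processing notes name cutadapt 1.8.3, Bowtie 1.1.2, hg38 and GRCh38.p5; the cluster caller is not given in the sources used here. Clusters were called per library, and the weakest had 5 reads and 2 converted positions in each. Depth outside clusters is unknown, and a gene without a cluster gets no upper limit.

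Clusters were matched to the genes by name. Gene intervals came from RefSeq (GRCh38.p14), which matched all 7 genes; 2 of 98 clusters lay outside their gene's interval. Where a cluster lay within a RefSeq promoter window, its sequence was identical there in 110 of 110 cases. No exon annotation was used, so introns are not numbered. Shares have 95% Wilson intervals, and values over the WT libraries are mean ± SD; with 1 KO library no test was run. Reads without molecular identifiers are not independent molecules.

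Genes named are the 7, pathway genes with a cluster and the 3 nearest RNASEH2B; clusters named are shared sites, the strongest per gene and WT library (3 for RNASEH2B) and KO clusters, and any other cluster mentioned was chosen after its values were seen. Some items that this rule names are not reported here. The overlap procedure was tested on simulated data. Alternatives were higher minima of reads or converted positions, leaving out a WT library, lists of equal size, ranking per kb and, added after seeing the data, at least 2 distinct read sequences. Software was scipy 1.17.1, numpy 2.4.6 and pandas 2.3.3 under Python 3.11.15.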

Additional observations from a re-analysis of the deposited data

How the results depend on the processing

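Of 92 alternative values over 16 results, 64 stayed within a set limit and 28 moved beyond it. For counts and clusters per 100 kb the limit was a fixed ratio to the main value. For base, class and conversion shares and the rank it was the SD of the WT libraries, and for the overlap share its Wilson interval. Some counts that moved thus changed by less than the spread between the WT libraries. Reversal of direction was not assessed. With at least 3 converted positions the WT mean of clusters in the 7 genes fell from 48.5 to 23.5, RNASEH2B clusters per 100 kb from 40.3 to 22.2, and pathway genes with a cluster from 16 to 9. Leaving out each WT library in turn gave 25 to 72 clusters, 1399 to 2854 reads, 19.7 to 60.9 clusters per 100 kb and 10 to 22 pathway genes. The mean rank of RNASEH2B, 339.5, became 267 with at least 10 reads, 162 with at least 3 converted positions, 286.5 with at least 2 distinct read sequences (chosen after seeing the data) and 212.5 per kb. The share of WT rep2 clusters of the 7 genes found in WT rep1 fell from 28.0% to 12.0% (3 of 25) with lists of equal size, beside 11.8% over all clusters. With at least 2 distinct read sequences KO had no cluster in the 7 genes. The sharing result needs both WT libraries, so neither could be left out. No paired analysis was possible because KO has 1 library and no test was run.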
